A study of Mus musculus with 15 samples.

Results

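Potassium channel subunits were followed in the mouse cortex through the loss and return of microglia. They were the rows of the deposited count table whose symbol begins with Kcn and continues with letters and then a number, without Kcnj8, a gene of mural cells, and Kcnj10, a gene of astrocytes. This gave 90 genes of the 53278 in the table, and 78 of them passed the filter on low counts. The other 12 (Kcna10, Kcna7, Kcne1, Kcne3, Kcnj1, Kcnj15, Kcnk15, Kcnk16, Kcnk18, Kcnk7, Kcnmb3 and Kcnv2) had at most 17 reads in any library and were not tested.

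The data were bulk RNA sequencing of brain cortex from male C57BL/6J mice, aged 10 to 20 weeks unless stated otherwise, with 5 mice in each of 3 groups and 1 library per mouse. Control mice ate control food. Depletion mice ate food with PLX3397, an inhibitor of the receptor CSF1R on which microglia depend, for 9 days. Repopulation mice were returned to control food for a further 9 days after the same 9 days of drug. PLX3397 reaches the whole animal and is also known to act on other kinases and on macrophages outside the brain. Repopulation mice therefore differed from control mice by past drug as well as by their new microglia.

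Potassium channels let potassium ions leave the cell, and so set its resting potential and end its action potentials. Alpha subunits form the pore, and auxiliary subunits change its gating or carry it to the membrane. Neurons use most of the families. Resting microglia are known for a tandem-pore leak channel, THIK-1, the product of Kcnk13, which in rodents was tied to the movement of their processes and to release of interleukin-1 beta. Activated microglia and macrophages are also known for the channels of Kcna3, Kcnn4, Kcnj2 and Kcnk6.

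Microglial markers were nearly lost in depletion. The 10 markers summed to 311 to 346 CPM (read counts scaled to the size of each library) in control, 13.8 to 17.8 in depletion and 341 to 385 in repopulation, and all 10 were called lower in depletion, at 0.230% to 22.5% of their control means. Of the markers of other cells, 6 of 6 of oligodendrocyte precursors and 5 of 6 of endothelium were lower in depletion. Of the oligodendrocyte markers, 5 of 6 were higher. Of 8 neuron markers 1 was higher and 1 lower, and likewise of 7 astrocyte markers. Over all tested genes, 8.19% were called higher and 8.35% lower in depletion. In repopulation against control, 3 of the 8 neuron markers were higher and 3 lower, beside 13.9% and 15.2% of all tested genes. Depth ran from 23413551 to 48617851 reads per library, so that 1 CPM stood for 23.4 to 48.6 reads. Strand use in counting is not given in the sources used here, so reads of genes with an exon under another gene cannot be assigned with certainty; of those named below these are Kcnab1, Kcnab2, Kcnd3, Kcnj13, Kcnj3, Kcnj6, Kcnk1, Kcnk2, Kcnk3, Kcnma1, Kcnmb4, Kcnn1, Kcnn2, Kcnq5 and Kcnt2. In bulk RNA, fewer cells of a type and less RNA per cell cannot be told apart.

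Kcnk13 (chr12:99964499-100062682, plus strand) did not follow the microglial markers. Its level was 11.8, 7.68, 8.13, 8.78 and 9.25 CPM in control, 11.1, 7.79, 8.54, 7.03 and 7.87 CPM in depletion and 8.46, 7.16, 8.38, 7.07 and 8.95 CPM in repopulation. All 3 groups overlapped, and control 1 and depletion 1 were the highest libraries. The log2 fold change of depletion against control was -0.12 (SE 0.123, adjusted p = 0.569). Adjusted p-values throughout are Benjamini-Hochberg values over the 18369 genes tested with edgeR's quasi-likelihood test, and a gene is called at a value under 0.05. The 95% interval of the depletion level ran from 77.9% to 109% of control. In the same libraries Csf1r, the drug's target, was at 0.254% of control, and P2ry12, whose receptor is known to drive THIK-1, at 2.96%. The step from depletion to repopulation was -0.082 (adjusted p = 0.73), and repopulation stood at -0.20 against control (adjusted p = 0.24). Exact two-sided permutation tests of 5 against 5 libraries gave p = 0.476, 0.643 and 0.19 for the same 3 comparisons. Adjusted over these 3 permutation tests alone, the values were 0.643, 0.643 and 0.571. The smallest p this design allows is 0.00794. Kcnk13 reads thus stayed near their control level while the microglial markers were nearly lost, and which cells held them was not measured.

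Kcnk12, the gene of the closest relative of THIK-1, was at 13.8 ± 1.19 CPM in control, 13.1 ± 2.43 in depletion and 13 ± 1.22 in repopulation (SD, n = 5 each here and below). It was not called in any comparison, with -0.070 in depletion (adjusted p = 0.704).

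Outside the channel genes, the tested genes whose log2 CPM was most like that of Kcnk13 over the 15 libraries were Ankrd6 (Pearson r = 0.86, Spearman rho = 0.81), Coro2b (Pearson r = 0.85, Spearman rho = 0.65), Gm15690 (Pearson r = 0.81, Spearman rho = 0.84), Txnrd1 (Pearson r = 0.81, Spearman rho = 0.60) and Gm45353 (Pearson r = 0.80, Spearman rho = 0.68). They were picked as the highest Pearson r of all tested genes outside the channel genes, so the values are a description with no p. Without control 1 and depletion 1, the libraries farthest from the median of Kcnk13, r was 0.71, 0.54, 0.84, 0.25 and 0.55 in that order, so the likeness of Txnrd1 rested on those 2 libraries. None of the 5 is in the list of microglial markers.

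Kcnk6 (chr7:29221926-29232515, minus strand) fell and returned, as did the markers of microglia and most markers of oligodendrocyte precursors. It encodes TWIK-2, known in mouse macrophages for the potassium efflux that precedes activation of the NLRP3 inflammasome. Its level was 5.14, 4.78, 3.98, 4.04 and 5.00 CPM in control, 2.49, 2.36, 1.60, 1.74 and 1.33 CPM in depletion and 6.14, 6.24, 6.01, 5.68 and 6.68 CPM in repopulation. The depletion libraries lay below all others, and the repopulation libraries above all controls. It fell by 1.26 on the log2 scale in depletion (SE 0.138, adjusted p = 1.99e-07), rose by 1.68 from depletion to repopulation (SE 0.136, adjusted p = 4.99e-10) and ended 0.42 above control (SE 0.121, adjusted p = 0.011). The depletion mean was 41.5% of control, a larger share than any of the 10 microglial markers kept. No single library was needed for these 3 calls. The markers of oligodendrocyte precursors had median log2 fold changes of -1.01 in depletion and 1.11 from depletion to repopulation. Those of microglia had -7.89 and 7.54, and those of endothelium -0.18 and 0.19. In repopulation against control the medians were -0.21, 0.12 and -0.088 in that order, beside 0.42 for Kcnk6. Which cells held the Kcnk6 reads was not measured.

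Kcna3 (chr3:107036169-107038070, plus strand), best known from T cells and activated microglia, was higher where microglial markers were nearly lost. Its level was 7.87, 9.14, 6.69, 7.48 and 6.69 CPM in control, 11.5, 9.34, 9.02, 11.6 and 12.5 CPM in depletion and 11.5, 12, 11.5, 14.2 and 14 CPM in repopulation. The lowest depletion library lay just under the highest control, and all repopulation libraries lay above the controls. Kcna3 rose by 0.50 in depletion (SE 0.102, adjusted p = 0.00119) and was 0.73 above control in repopulation (SE 0.101, adjusted p = 9.99e-06), while the step between these groups was 0.23 (adjusted p = 0.117).

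Kcnj2 (chr11:111066164-111076821, plus strand), an inward rectifier of microglia that also lets brain vessels sense potassium, was at 23.3, 30.8, 34.6, 27.5 and 29.6 CPM in control, 39.6, 37.2, 41.3, 33.6 and 30.5 CPM in depletion and 23.1, 25.2, 28.2, 21.5 and 30.3 CPM in repopulation. Every depletion library lay above every repopulation library, while controls overlapped both. It fell by 0.51 from depletion to repopulation (SE 0.120, adjusted p = 0.0102). Against control it stood at 0.33 in depletion (adjusted p = 0.0778) and -0.18 in repopulation (adjusted p = 0.304). Kcnn4, a calcium-activated channel of activated microglia, had 3 to 15 reads per library, or 0.320 ± 0.162 CPM in control, 0.327 ± 0.140 in depletion and 0.349 ± 0.0775 in repopulation. Its 95% interval in depletion ran from 62.6% to 169.6% of control, so a change of the size seen for Kcna3 was not detectable at this depth.

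**Figure D1:**
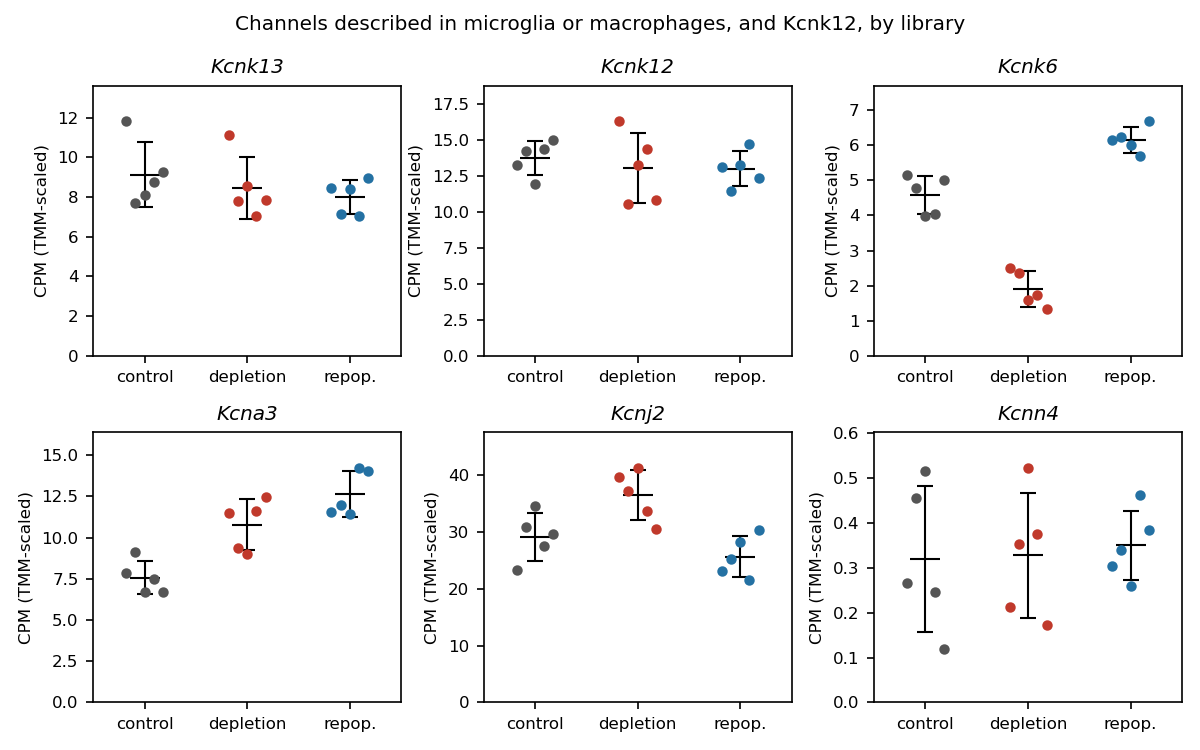
Level in CPM (vertical axis) of the channel genes known from microglia or macrophages, and of Kcnk12, in each library of the 3 groups; points are mice, and the marked level and bars are the mean and SD of 5 libraries. Kcnk6 drops to 1.33 to 2.49 CPM in depletion and returns above control, whereas the groups of Kcnk13 overlap.

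The promoter windows of Kcnk13, Kcna3 and Kcnj2 are shown because these transcripts of channels known from microglia were not called lower in depletion. They run from 250 bases before to 50 bases after the annotated start and were taken from RefSeq on GRCm38.p6, at chr12:99964249-99964548 for Kcnk13, chr3:107035912-107036211 for Kcna3 and chr11:111065914-111066213 for Kcnj2, all on the plus strand. Capitals mark GAGGAA or its reverse complement TTCCTC, a core bound by the myeloid factor PU.1 and by other factors of the ETS class.
Kcnk13: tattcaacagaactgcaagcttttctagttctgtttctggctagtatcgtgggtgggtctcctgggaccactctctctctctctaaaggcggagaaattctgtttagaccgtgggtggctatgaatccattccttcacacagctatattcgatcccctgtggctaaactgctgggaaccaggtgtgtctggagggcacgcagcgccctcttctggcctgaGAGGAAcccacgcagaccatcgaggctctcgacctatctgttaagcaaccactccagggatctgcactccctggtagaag
Kcna3: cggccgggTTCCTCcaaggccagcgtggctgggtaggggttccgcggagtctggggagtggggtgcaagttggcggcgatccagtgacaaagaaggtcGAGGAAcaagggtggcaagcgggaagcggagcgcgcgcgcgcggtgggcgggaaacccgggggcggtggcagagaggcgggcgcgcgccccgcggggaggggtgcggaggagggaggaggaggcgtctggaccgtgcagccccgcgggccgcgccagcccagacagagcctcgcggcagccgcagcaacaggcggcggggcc
Kcnj2: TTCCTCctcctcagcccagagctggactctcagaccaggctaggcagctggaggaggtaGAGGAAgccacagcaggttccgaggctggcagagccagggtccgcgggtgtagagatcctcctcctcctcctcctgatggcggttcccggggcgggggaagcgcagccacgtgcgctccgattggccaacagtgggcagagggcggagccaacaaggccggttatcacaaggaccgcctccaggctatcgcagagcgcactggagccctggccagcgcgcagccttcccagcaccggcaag
The core occurs 1 time in the window of Kcnk13 and 2 times each in those of Kcna3 and Kcnj2. It is in 28.3% of all 32851 promoter windows of this length and in 30% of the 90 windows of the 65 channel genes matched in the table. Of the microglial markers, 5 windows were matched, and 3 of them hold the core. The longer form GAGGAAGT, searched on both strands, is in 3.20% of all windows, in 0 of the channel windows and in 0 of the marker windows. These matches are letters only and name no bound factor. No window was available for Kcnk6, which was called lower in depletion, and that of Kcnn4 is not shown.

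Over the family, the changes called in depletion were mostly small. Of the 78 tested channel genes, 12 were called higher and 5 lower, beside 8.19% and 8.35% of all tested genes (16.5% either way). The median log2 fold change was 0.00062, and -0.0019 over all tested genes. The higher ones were Kcna1, Kcna3, Kcna4, Kcnt2, Kcnd2, Kcnq3, Kcnk9, Kcnq5, Kcnj6, Kcnh5, Kcnma1 and Kcnab1, and the lower ones Kcnk6, Kcnh4, Kcnj16, Kcnk3 and Kcnip3. The count of higher genes was 7 without control 1 and without depletion 1. Where removing, within each library, the trends of level along exon length and GC content ended a call or moved its fold by over 1.5 times, the value after it is given beside the result as trend-corrected. The median size among the called channel genes was 0.27, and 0.22 among all called genes, so small size was not particular to the channel genes. All channel genes together summed to 6564 to 6992 CPM per library in control, 6471 to 7263 in depletion and 6924 to 7091 in repopulation.

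**Figure D2:**
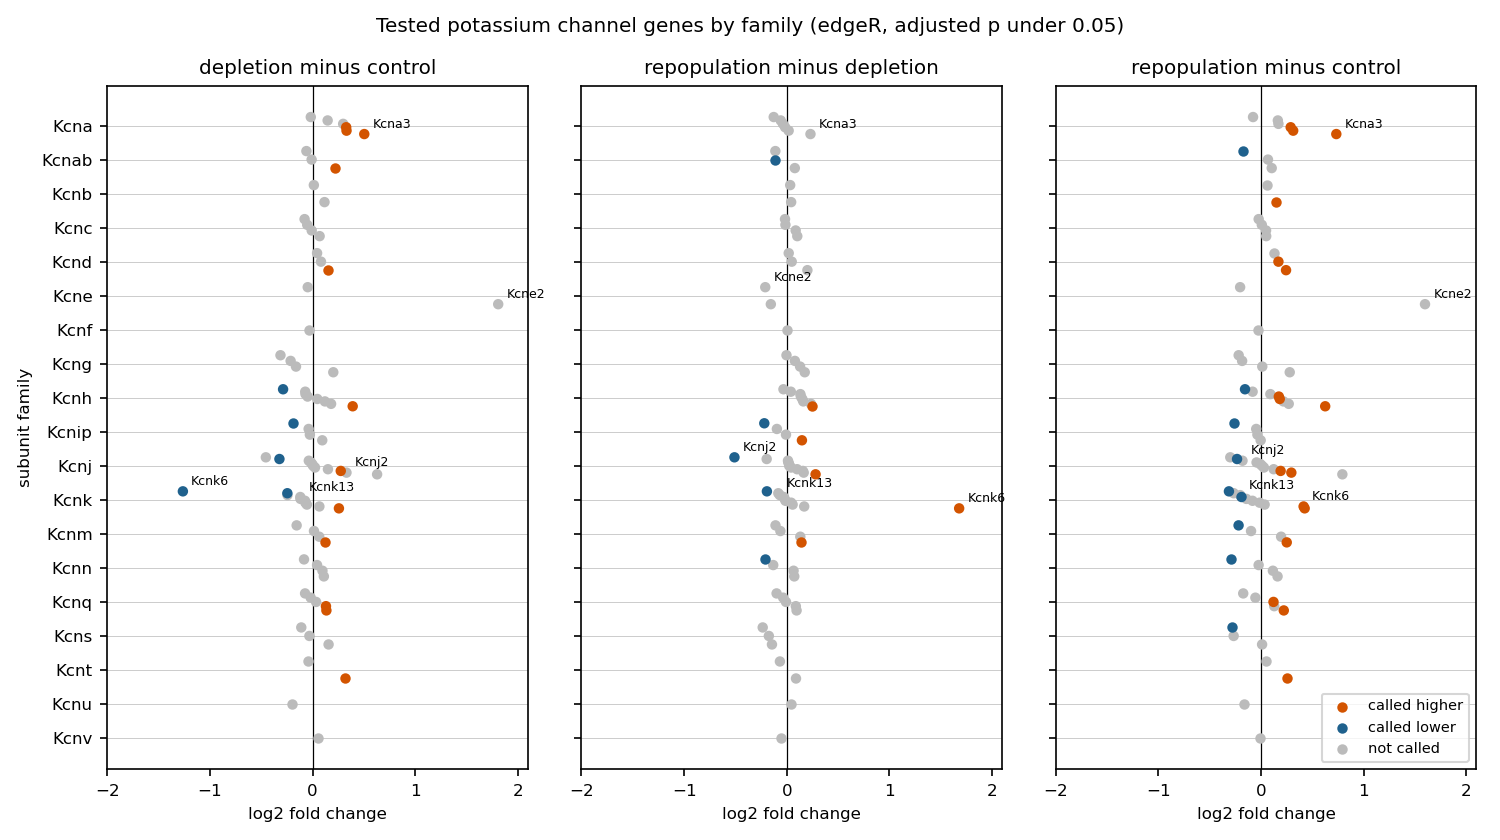
Log2 fold change (horizontal axis) of each of the 78 tested channel genes, by family (vertical axis), in the 3 comparisons; colours mark genes called higher, called lower and not called. Kcnk6, at -1.26 in depletion and 1.68 from depletion to repopulation, stands apart from the other called genes, and Kcne2 at 1.81 in depletion was not called.

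Of the Shaker family (Kcna), whose channels set the excitability of axons and endings, 3 of 6 tested genes rose in depletion. Over all tested genes, 8.19% were called higher there. Kcna1, an axonal subunit whose loss causes seizures in mice, was at 90.6, 104, 94, 104 and 102 CPM in control, 136, 107, 132, 123 and 123 CPM in depletion and 117, 129, 112, 124 and 122 CPM in repopulation. No library of either treated group fell into the control range. It rose by 0.33 in depletion (SE 0.057, adjusted p = 0.00045) and was 0.29 above control in repopulation (adjusted p = 0.00065), with -0.037 between (adjusted p = 0.731). Kcna4, which carries a fast inactivating current, was at 23.3 ± 1.56 CPM in control, 29.4 ± 2.66 in depletion and 29 ± 3.28 in repopulation. It was 0.33 and 0.31 above control in the treated groups (adjusted p = 0.00269; adjusted p = 0.00198). Kcna2, the usual partner of Kcna1 in axons, was at 400.2 ± 30.4 CPM in control, 443 ± 47.5 in depletion and 449 ± 15.1 in repopulation and was not called (0.15 and 0.17 against control, adjusted p = 0.159 and 0.0783).

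The 4 tested Kcnc genes, which serve fast-spiking neurons, were not called in any comparison, with log2 fold changes from -0.078 to 0.068 in depletion. Over all tested genes, 16.5% were called in depletion, 16.6% from depletion to repopulation and 29.1% in repopulation against control. Kcnc1, for example, was at 266 ± 11.2 CPM in control, 256 ± 14.7 in depletion and 275 ± 6.43 in repopulation. Of the 4 markers of fast-spiking interneurons, 0 were higher and 1, Pvalb, was lower in depletion, beside 8.19% and 8.35% of all tested genes. Pvalb alone of the 4 was also called from depletion to repopulation and in repopulation against control. It was lower in both, beside 8.98% and 15.2% of all tested genes called lower.

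Kcnd2, the pore of the dendritic A-type current, was at 119.6, 121, 123, 121 and 117 CPM in control, 135, 141, 128, 129 and 136 CPM in depletion and 133, 141, 133, 123 and 147 CPM in repopulation. Both treated groups lay above all controls, the lowest repopulation library by less than 1 CPM. The rise was 0.15 in depletion (SE 0.04, adjusted p = 0.01) and 0.17 in repopulation against control (adjusted p = 0.00202, trend-corrected 0.10 with adjusted p = 0.0699). Its relative Kcnd3 stood at 0.082 and 0.13 (adjusted p = 0.318 and 0.0636).

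The KChIP genes (Kcnip) encode calcium sensors that bind Kcnd channels. Kcnip3, whose product is also known as a repressor of transcription, was at 136 ± 5.72 CPM in control, 119 ± 10.8 in depletion and 131 ± 3.11 in repopulation. It fell by 0.19 in depletion (adjusted p = 0.00569, trend-corrected -0.064 with adjusted p = 0.444) and rose by 0.15 afterwards (adjusted p = 0.0323, lost without any 1 of 6 libraries, up to 0.114 without depletion 2, trend-corrected 0.065 with adjusted p = 0.41). Kcnip2 was at 201, 166, 181, 171 and 168 CPM in control, 178, 179.8, 170.0, 171 and 165 CPM in depletion and 143, 152, 151, 139 and 156 CPM in repopulation. Its repopulation libraries lay below all others. It fell by 0.22 from depletion to repopulation (SE 0.045, adjusted p = 0.00132), to -0.26 against control (adjusted p = 0.000127), and stood at -0.039 in depletion (adjusted p = 0.621).

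The Kcnq genes carry the M-current, which muscarinic receptors close. Kcnq3 was at 273 to 303 CPM in control, 290.2 to 333 in depletion and 324 to 353 in repopulation, so that repopulation lay above all controls. It rose by 0.13 in depletion (adjusted p = 0.0152, and 0.0563 without control 3, trend-corrected 0.039 with adjusted p = 0.486) and was 0.22 above control in repopulation (adjusted p = 8.03e-05, trend-corrected 0.058 with adjusted p = 0.227). Kcnq5 was 0.13 above control in depletion (adjusted p = 0.0279, lost without any 1 of 5 libraries, up to 0.101 without depletion 3) and 0.12 in repopulation (adjusted p = 0.0237, lost without any 1 of 5 libraries, up to 0.0863 without control 5, trend-corrected 0.041 with adjusted p = 0.487).

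Kcnma1, the large-conductance calcium-activated pore, was called in each comparison, and in none of them after trend correction. It was at 353, 393, 357, 374 and 381 CPM in control, 403, 383, 419, 387 and 423 CPM in depletion and 449.8, 464, 422, 458 and 417 CPM in repopulation. Repopulation lay above all controls, and depletion overlapped both. The rise was 0.12 in depletion (adjusted p = 0.0394, lost without any 1 of 6 libraries, up to 0.115 without control 1, trend-corrected 0.040 with adjusted p = 0.506), 0.13 from depletion to repopulation (adjusted p = 0.0174, lost without any 1 of 4 libraries, up to 0.0647 without repopulation 2, trend-corrected 0.051 with adjusted p = 0.339) and 0.25 in repopulation against control (adjusted p = 2.91e-05, trend-corrected 0.091 with adjusted p = 0.0637). Kcnmb4, the neuronal auxiliary subunit of that pore, stood at -0.22 in repopulation against control (adjusted p = 0.00605).

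Kcnn1, a small-conductance calcium-activated channel of the afterhyperpolarisation, was at 18.1 ± 1.74 CPM in control, 17.1 ± 0.732 in depletion and 14.8 ± 0.909 in repopulation, and its repopulation libraries lay below all others. It fell by 0.21 from depletion to repopulation (adjusted p = 0.0278, lost without any 1 of 2 libraries, up to 0.0897 without repopulation 4, trend-corrected -0.32 with adjusted p = 0.000808) and stood at -0.29 against control (adjusted p = 0.00115). Kcnn2, of the same class, was at 37.8 ± 2.42 CPM in control, 40.8 ± 1.49 in depletion and 37.2 ± 2.12 in repopulation. It was not called before trend correction, and after it was called lower from depletion to repopulation (-0.22, adjusted p = 0.00175). Kcnt2, a sodium-activated pore, was at 41.7 ± 3.36 CPM in control, 52 ± 5.87 in depletion and 49.6 ± 4.09 in repopulation, with both treated groups above all controls (0.32, adjusted p = 0.00637; 0.25, adjusted p = 0.0159, trend-corrected 0.14 with adjusted p = 0.204). Its relative Kcnt1 stood at -0.042 and 0.048 (adjusted p = 0.511 and 0.386).

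The ether-a-go-go family (Kcnh) held genes that moved in either direction. Kcnh5 was at 16.2 to 21.4 CPM in control, 18.5 to 29.1 in depletion and 26.1 to 33 in repopulation, and repopulation did not overlap control. It rose by 0.39 in depletion (adjusted p = 0.037, lost without any 1 of 7 libraries, up to 0.107 without control 1) and was 0.63 above control in repopulation (SE 0.118, adjusted p = 0.00102). Kcnh4 was at 39.4 ± 2.71 CPM in control, 32.2 ± 2.16 in depletion and 35.4 ± 2.45 in repopulation, with depletion below all controls. It fell by 0.29 in depletion (adjusted p = 0.000819, trend-corrected -0.14 with adjusted p = 0.102) and stood at -0.15 in repopulation against control (adjusted p = 0.0397, lost without any 1 of 6 libraries, up to 0.121 without repopulation 3, trend-corrected -0.10 with adjusted p = 0.186). Kcnh2, known for cardiac repolarisation, was at 38.3 ± 1.33 CPM in control, 36.4 ± 2.31 in depletion and 43.2 ± 2.78 in repopulation. It rose by 0.25 from depletion to repopulation (adjusted p = 0.00117, trend-corrected 0.14 with adjusted p = 0.0335), to 0.17 above control (adjusted p = 0.00989). Kcnh1 was 0.18 above control in repopulation (adjusted p = 0.0394, lost without any 1 of 9 libraries, up to 0.114 without control 1, trend-corrected 0.12 with adjusted p = 0.161).

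Among the tandem-pore genes (Kcnk), which carry leak current, Kcnk9 and Kcnk3 encode related channels that acid closes, and they were called in opposite directions in depletion and in repopulation against control. After trend correction neither was called in depletion. Kcnk9 was at 20.1 ± 2.24 CPM in control, 24 ± 2.51 in depletion and 27 ± 1.51 in repopulation. It rose by 0.26 in depletion (adjusted p = 0.0204, lost without any 1 of 5 libraries, up to 0.0649 without depletion 4, trend-corrected 0.20 with adjusted p = 0.0634) and was 0.43 above control in repopulation (adjusted p = 0.00014). Kcnk3 was at 29.8 ± 1.13 CPM in control, 25.1 ± 2.75 in depletion and 26.1 ± 1.36 in repopulation. It fell by 0.25 in depletion (adjusted p = 0.00556, trend-corrected -0.10 with adjusted p = 0.299) and stood at -0.19 in repopulation against control (adjusted p = 0.0184, and 0.0593 without repopulation 2, trend-corrected -0.14 with adjusted p = 0.0854). Kcnk1, a weak inward rectifier of neurons and astrocytes, was at 83.6 to 95.3 CPM in control, 72.8 to 89.5 in depletion and 67.4 to 77.5 in repopulation, with repopulation below all controls (-0.31, SE 0.054, adjusted p = 0.000135). From depletion to repopulation it fell by 0.19 (adjusted p = 0.0157, lost without any 1 of 3 libraries, up to 0.0568 without depletion 1). Kcnk2, which stretch and lipids open, was at 75.8 ± 4.47 CPM in control, 79.4 ± 4.31 in depletion and 77.8 ± 5.44 in repopulation and was not called.

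Kcnj16 encodes a subunit that joins the product of the astrocyte gene Kcnj10 in potassium uptake, and it fell and returned. It was at 22.8, 20.9, 22.8, 23 and 25.1 CPM in control, 19.9, 17.7, 19.9, 15.5 and 18.5 CPM in depletion and 22, 24.6, 23.3, 21 and 20.3 CPM in repopulation. The depletion libraries lay below all others. The fall was 0.32 on the log2 scale (log2 fold change -0.32, SE 0.068, adjusted p = 0.00153) and the later rise 0.28 (adjusted p = 0.00518), to -0.042 against control (adjusted p = 0.686). The left-out Kcnj10 was at 209 ± 9.79 CPM in control, 184 ± 14.1 in depletion and 217 ± 14 in repopulation, at -0.18 in depletion (adjusted p = 0.0145) and 0.23 from depletion to repopulation (adjusted p = 0.00221). In control, depletion and repopulation, the 6 markers of oligodendrocyte precursors summed to 237 to 296, 133 to 187 and 225 to 254 CPM and the 7 astrocyte markers, Kcnj10 included, to 3881 to 4089, 3816 to 4171 and 3851 to 3945 CPM. None of these markers lacked reads in all libraries of a group. Of the 7 astrocyte markers, Gfap was called higher and Kcnj10 lower in depletion, beside 8.19% and 8.35% of all tested genes. From depletion to repopulation Kcnj10 was higher and Gfap, Gja1 and Aldh1l1 were lower, beside 7.61% and 8.98%. The part of either cell type in the change of Kcnj16 was not tested.

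Among the other inward rectifiers, the subunits that G proteins open mediate slow inhibition of neurons. Kcnj6, of this class, rose by 0.27 in depletion (adjusted p = 0.0316, lost without any 1 of 6 libraries, up to 0.0803 without control 3) and was 0.30 above control in repopulation (adjusted p = 0.0119, trend-corrected 0.22 with adjusted p = 0.063). Kcnj3, its partner, was 0.19 above control in repopulation (adjusted p = 0.00881, trend-corrected 0.11 with adjusted p = 0.121). Kcnj12, a strong rectifier, stood at -0.23 in repopulation against control (adjusted p = 0.0388, lost without any 1 of 7 libraries, up to 0.0852 without control 5, trend-corrected -0.15 with adjusted p = 0.2). The left-out mural gene Kcnj8 was at 3.46 ± 0.613 CPM in control, 2.53 ± 0.736 in depletion and 2.19 ± 0.373 in repopulation and was lower in repopulation than in control (-0.67, adjusted p = 0.00431). Of the 6 mural markers, Kcnj8 included, it alone was called there, and their median log2 fold change was -0.024. They summed to 152 to 168 CPM in control and 159 to 167 CPM in repopulation.

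Kcnab2, a beta subunit of Kcna channels, had the highest control level of the channel genes per kilobase of exon (86.4 CPM per kb, before Kcnj4 at 58.4 and Kcnip2 at 51). It was at 458 to 505 CPM in control, 432 to 479 in depletion and 420.3 to 444 in repopulation, with repopulation below all controls (-0.17, adjusted p = 0.0004). From depletion to repopulation it fell by 0.11 (adjusted p = 0.0254, lost without any 1 of 5 libraries, up to 0.0737 without depletion 1, trend-corrected -0.23 with adjusted p = 1.43e-05). Kcnab1, a beta subunit that speeds inactivation, rose by 0.22 in depletion (adjusted p = 0.0466, lost without any 1 of 10 libraries, up to 0.109 without depletion 2, trend-corrected 0.16 with adjusted p = 0.174). Kcns1, a silent subunit that modifies other pores, stood at -0.28 in repopulation against control (adjusted p = 0.0327, lost without any 1 of 6 libraries, up to 0.0775 without control 5, trend-corrected -0.19 with adjusted p = 0.212).

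**Figure D3:**
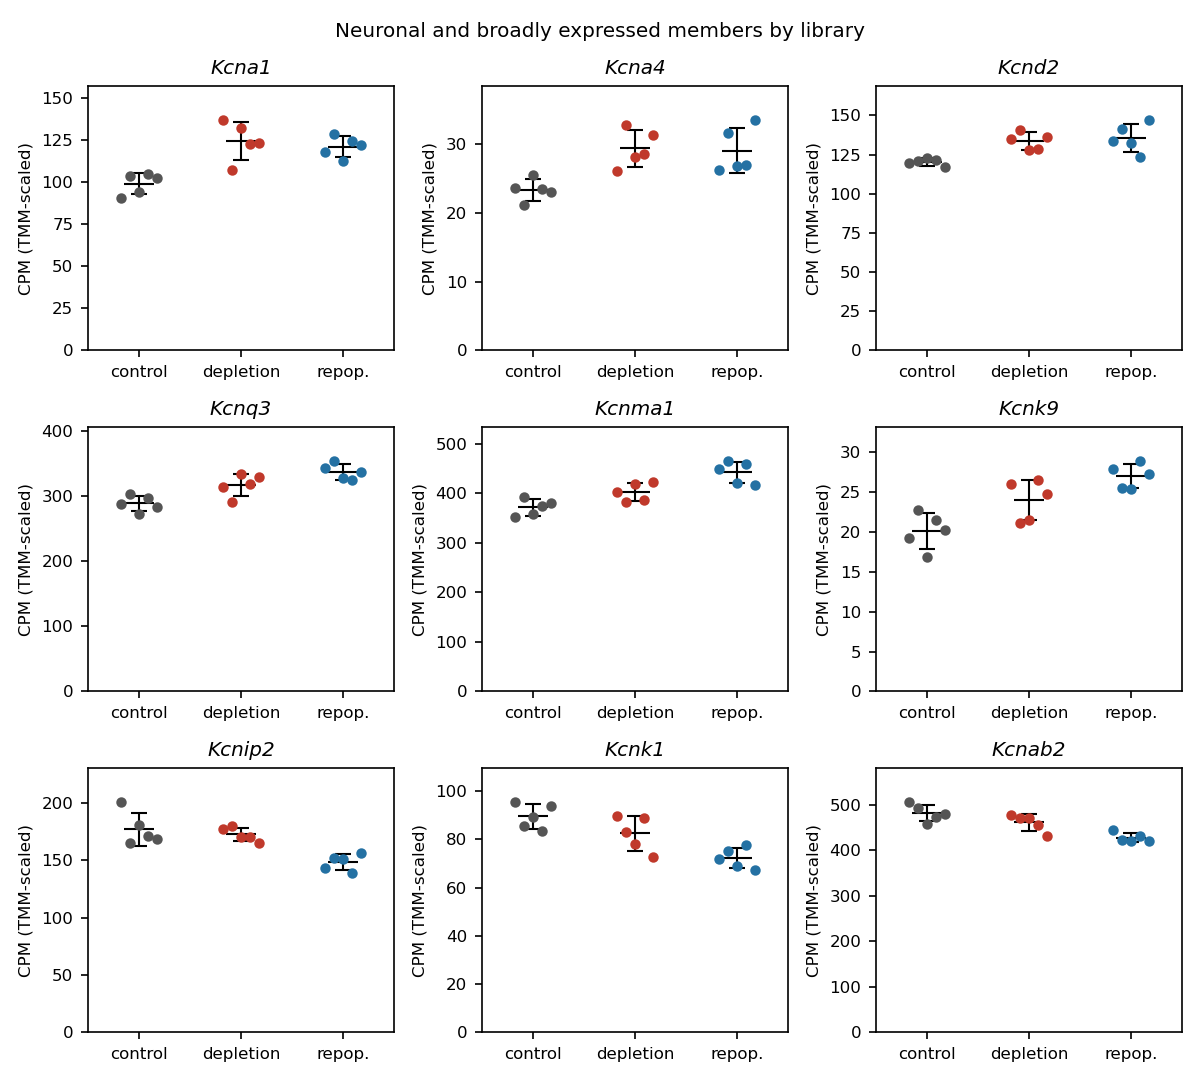
Level in CPM (vertical axes) of neuronal or broadly expressed channel genes in each library; points are mice, and the marked level and bars are the mean and SD of 5 libraries. Kcna1 is above the control range in both treated groups, and Kcnip2 is lowest in repopulation, at 139 to 156 CPM.

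Kcnj13 and Kcne2, known from the choroid plexus, varied between libraries and were not called. Kcnj13 was at 1.25, 1.14, 1.17, 0.858 and 0.827 CPM in control, 1.82, 2.93, 1.81, 0.854 and 0.774 CPM in depletion and 0.607, 0.882, 0.927, 5.54 and 1.32 CPM in repopulation. Kcne2 was at 0.102, 0.325, 0.377, 0.286 and 0.197 CPM in control, 0.605, 1.41, 1.74, 0.205 and 0.344 CPM in depletion and 0.303, 0.102, 0.148, 2.98 and 0.244 CPM in repopulation. Depletion 1, 2 and 3 and repopulation 4 were the 4 highest libraries for both genes. Ttr, the defining transcript of choroid plexus, was at 69.8, 179, 97.8 and 479.6 CPM in those libraries and at 1.52 to 14.7 CPM in the others. In depletion against control Kcnj13 stood at 0.63 (adjusted p = 0.547) and Kcne2 at 1.81 (adjusted p = 0.257). Without repopulation 4, repopulation against control went from 0.79 to -0.19 for Kcnj13 and from 1.60 to -0.29 for Kcne2.

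**Figure D4:**
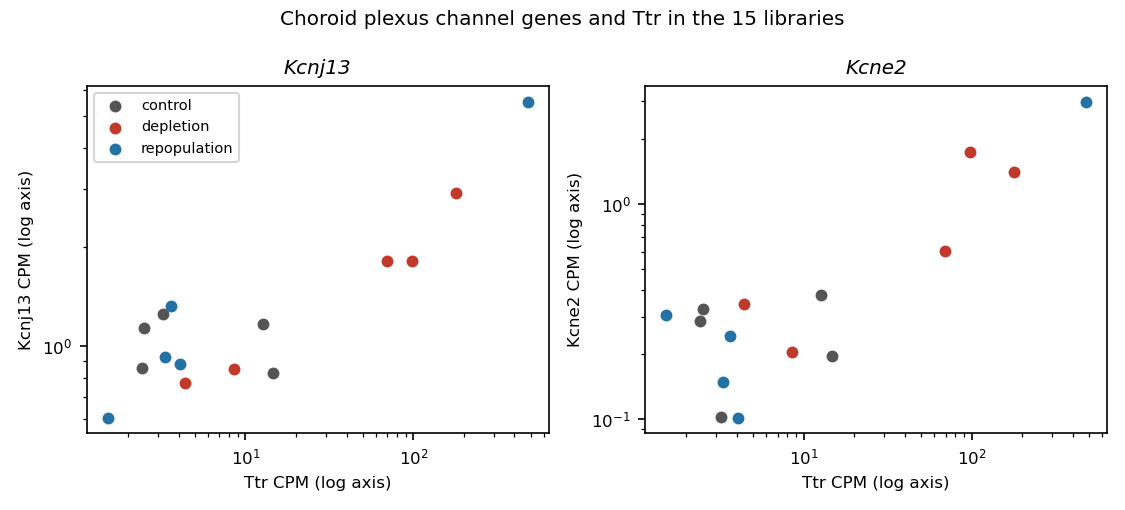
Kcnj13 and Kcne2 (vertical axes, CPM, log scale) against Ttr (horizontal axes, CPM, log scale) in the 15 libraries, coloured by group. The 4 libraries with the most Ttr, depletion 1, 2 and 3 and repopulation 4, are also the 4 with the most Kcnj13 and Kcne2.

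From depletion to repopulation, 5 of the 78 tested genes were called higher (Kcnk6, Kcnh2, Kcnj16, Kcnma1 and Kcnip3) and 5 lower (Kcnip2, Kcnj2, Kcnk1, Kcnab2 and Kcnn1), beside 7.61% and 8.98% of all tested genes (16.6% either way). The count of higher genes was 3 without depletion 2, without depletion 4, without repopulation 2 and without repopulation 4, and that of lower genes was 2 without depletion 1 and 3 without repopulation 3. Kcnk6, Kcnj16 and Kcnip3 were called in both this comparison and that of depletion against control, in opposite directions, and the 2 comparisons share the depletion libraries. The median of the channel genes was 0.019, and 0.00084 over all tested genes.

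Between repopulation and control, 17 were called higher and 9 lower, beside 13.9% and 15.2% of all tested genes (29.1% either way), with medians of 0.021 and 0.0074. This comparison shares its controls with that of depletion, so the values stand side by side and neither supports the other. The count of lower genes was 5 without repopulation 2. Besides those described above, Kcnb2, a delayed rectifier (0.15, adjusted p = 0.0163, lost without any 1 of 2 libraries, up to 0.0804 without control 1, trend-corrected -0.036 with adjusted p = 0.616), and the A-type gene Kcnd1 (0.24, adjusted p = 0.0244, lost without any 1 of 5 libraries, up to 0.0873 without control 5) were higher.

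The called channel genes differed in length, which the choice of genes did not use. The 12 higher in depletion had a median exon length of 7.26 kb, the 5 lower 3.95 kb and the 61 not called 4.51 kb. Over all tested genes with more than 8 kb of exon, 25.3% were higher and 5.59% lower in depletion, against 2.85% and 9.60% among those of 2 to 4 kb. After removal, within each library, of the trends along exon length and GC content, 10 channel genes were higher and 2 lower in depletion (9.45% and 4.51% of all tested genes). The same counts were 3 and 11 from depletion to repopulation (4.21% and 19.1%) and 8 and 6 in repopulation against control (7.62% and 15.8%). The setting also moved the median log2 fold change of all tested genes, from -0.0019 to 0.042 in depletion. That median went from 0.00084 to -0.064 from depletion to repopulation, and from 0.0074 to -0.014 in repopulation against control. Trend-corrected values hold this shift too. In depletion, Kcna1, Kcna3, Kcna4, Kcnd2, Kcnh5, Kcnj16, Kcnj6, Kcnk6, Kcnq5 and Kcnt2 stayed called, Kcnab1, Kcnh4, Kcnip3, Kcnk3, Kcnk9, Kcnma1 and Kcnq3 did not, and Kcnc4 and Kcnj4 were called in addition. From depletion to repopulation, Kcnip3 and Kcnma1 were no longer called. Called lower there in addition were, among others, Kcnn2 (-0.22, adjusted p = 0.00175) and Kcnj12 (-0.27, adjusted p = 0.02). In repopulation against control, Kcnb2, Kcnd2, Kcnh1, Kcnh4, Kcnj12, Kcnj3, Kcnj6, Kcnk3, Kcnma1, Kcnq3, Kcnq5, Kcns1 and Kcnt2 were no longer called, and Kcnb2 went to -0.036, adjusted p = 0.616. Kcnk6 stood at -1.18, adjusted p = 7.58e-07 in depletion under this setting, Kcna3 at 0.66, adjusted p = 5.51e-05 and Kcnk13 at 0.022, adjusted p = 0.935. The source of the length trend was not tested.

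**Figure D5:**
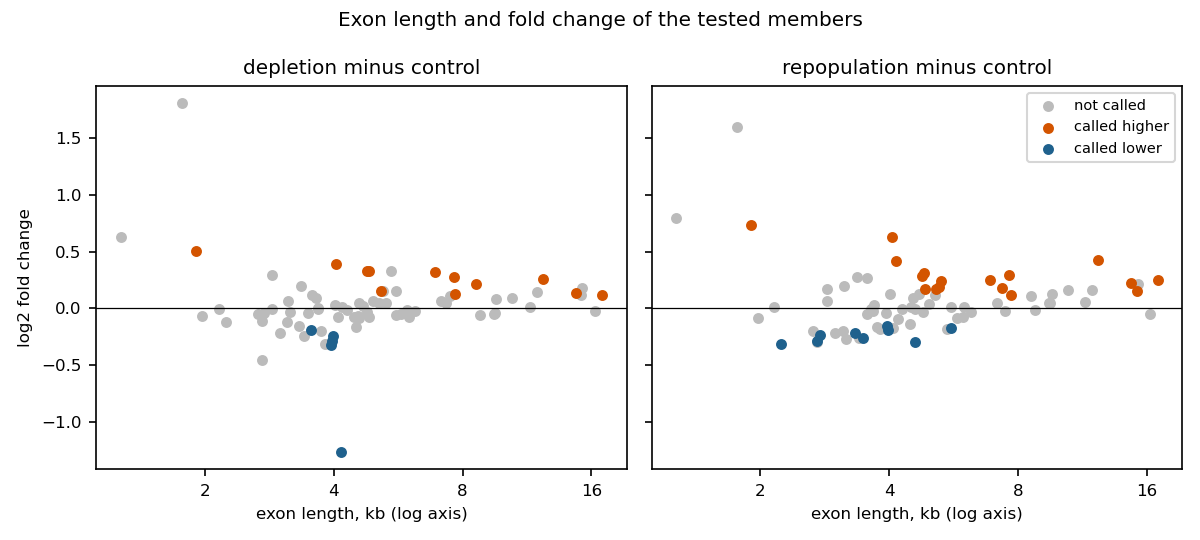
Log2 fold change (vertical axis) against exon length in kb (horizontal axis, log scale) of the 78 tested channel genes in depletion and in repopulation against control; colours mark calls. Genes called higher in depletion span 1.90 to 17 kb, and those called lower lie within that span, between 3.55 and 4.15 kb.

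Genes that work with these channels were described from 4 lists. Of 23 tested partners of potassium channels, 8 higher and 1 lower were called in depletion, beside 8.19% and 8.35% of all tested genes (median 0.069). Ank3, the ankyrin that holds Kcnq channels at the axon initial segment, was at 562 ± 17.7 CPM in control, 675 ± 37.3 in depletion and 689 ± 22.3 in repopulation and rose by 0.26 in depletion (adjusted p = 8.85e-06). Cntnap2, which clusters Kcna channels beside the node, was at 132 ± 5.76 CPM in control, 159.5 ± 10.3 in depletion and 163 ± 10.6 in repopulation and rose by 0.27 (adjusted p = 0.000169). Hcn2, a pacemaker channel, fell by 0.16 (adjusted p = 0.0021), a call that ended after trend correction. Among 10 sodium channel genes, 5 higher and 1 lower were called, with the pore gene Scn2a at 0.24 (adjusted p = 0.000202). Of 15 calcium channel genes, 4 higher and 1 lower were called, and of 12 potassium pumps and transporters 2 higher and 1 lower. Before trend correction, and read against the same shares of all tested genes, the counts of pumps and transporters were near the background. After it, 33.3% of pumps and transporters and 13.3% of calcium channel genes were higher, beside 9.45% of all tested genes. After trend correction, the counts of partners, sodium channels, calcium channels, and pumps and transporters in depletion were, beside 9.45% and 4.51% of all tested genes, 6 higher and 0 lower, 4 higher and 0 lower, 2 higher and 0 lower and 4 higher and 0 lower. In repopulation against control the uncorrected counts were 9 higher and 1 lower, 5 higher and 2 lower, 7 higher and 1 lower and 3 higher and 1 lower, beside 13.9% and 15.2% of all tested genes. The trend-corrected counts there were 2 higher and 3 lower, 4 higher and 2 lower, 2 higher and 0 lower and 2 higher and 2 lower, beside 7.62% and 15.8% of all tested genes.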

How the data were processed

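The authors deposited 1 table of raw read counts per gene for the 15 libraries; the aligner STAR, FastQC, MultiQC and DESeq2 are named in the submitters' processing notes, and strand use is not given in the sources used here. Counts were fitted over all 15 libraries with edgeR 4.0.16 (filterByExpr, TMM scaling, robust quasi-likelihood test) in R 4.3.3, with Benjamini-Hochberg adjustment over all tested genes. Fold changes are log2. CPM uses TMM-scaled totals. The permutation test of Kcnk13 used log2(CPM + 0.1) in SciPy 1.17.1. Exon lengths, GC content and positions came from GENCODE M21 (GRCm38), promoters from RefSeq. The fit was tested on simulated data. Alternatives were DESeq2 1.42.0, other scalings, no filter, the replicate block, 2 groups alone, offsets for length and GC, and leaving out each library. Named genes were, per comparison, up to 8 higher and 8 lower channel genes ranked by adjusted p, and a set chosen by role; Kcnab1, Kcnb2, Kcnd1, Kcnj3 and Kcnj6 fall outside that rule and were chosen after their values were seen. Members and lists were chosen with earlier results of these data known. A few genes are not reported here. Exons of 28 channel genes overlap those of another gene, so their reads may be shared. Each library came from its own mouse, per the labels' protocols, which also name 15 mice.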

Additional observations from a re-analysis of the deposited data

Results flagged for a closer look

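In 5 of 123 sets of 5 libraries of a named channel gene, 1 library lay farther from the rest than Dixon's 95% limit of 0.71 for its gap over the range, and chance alone gives about 1 in 20. Repopulation 4 was high for Kcnj13, at 5.54 CPM against 0.607 to 1.32 CPM in the other repopulation libraries, and for Kcne2, at 2.98 CPM against 0.102 to 0.303 CPM. The same library held the most Ttr, the choroid plexus transcript, at 479.6 CPM. Kcnh1, a voltage-gated channel of neurons, was low in depletion 2, at 106 CPM against 129.5 to 135 CPM in the other depletion libraries, and high in repopulation 4, at 149 CPM against 135 to 139 CPM. Kcnip3 was low in repopulation 5, at 126 CPM against 132 to 134 CPM.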

How the results depend on the processing

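With length and GC trends taken out, 2 channel genes were lower in depletion against control, 3 were higher and 11 lower in repopulation against depletion, and 8 were higher in repopulation against control. With no filter on low counts, 8 were higher in repopulation against depletion. With length and GC trends taken out, all tested genes had a median of 0.042 in depletion against control. It was -0.064 in repopulation against depletion and -0.014 in repopulation against control. The cause was not tested. The other counts of called channel genes stayed within 1.5 times under DESeq2, RLE and upper quartile scaling, no filter and fits of only the 2 groups compared. Same-numbered libraries did not deviate together (r of their deviations -0.13 to 0.10). No pairing by number was seen, though such a check on 5 libraries per group cannot exclude it. With the replicate block, 12 and 6, 4 and 5, and 15 and 8 channel genes were higher and lower in depletion against control, repopulation against depletion and repopulation against control. Signs that turned with length and GC trends taken out were, in depletion against control, Kcnab2 0.058, Kcnb2 -0.0014, Kcnc1 0.016, Kcnh2 0.061, Kcnip2 0.087, Kcnj12 0.12, Kcnk13 0.022, Kcnn1 0.052, Kcns1 0.050 and Kcnt1 0.025, in repopulation against depletion, Kcna2 -0.055, Kcnb2 -0.035, Kcnc1 -0.019, Kcnd2 -0.033, Kcnd3 -0.042, Kcnj3 -0.0066, Kcnj6 -0.060, Kcnk12 0.017, Kcnk3 -0.044, Kcnn4 -0.041 and Kcnt1 -0.032, in repopulation against control, Kcnab1 -0.014, Kcnb2 -0.036, Kcnc1 -0.0039, Kcnip3 0.00072, Kcnk12 0.011 and Kcnt1 -0.0065. Signs that turned with upper quartile scaling were, in repopulation against depletion, Kcna4 0.0019, Kcnk12 0.0067 and Kcnq5 0.011. Signs that turned with the replicate block were, in repopulation against depletion, Kcnj13 -0.0075. Of these, only Kcnb2 in repopulation against control had been called. Leaving out 1 library at a time gave 7 to 14 higher in depletion against control, 3 to 7 higher in repopulation against depletion, 13 to 19 higher in repopulation against control, 5 to 7 lower in depletion against control, 2 to 6 lower in repopulation against depletion, 5 to 9 lower in repopulation against control. Log2 fold changes that turned sign when 1 library was left out spanned, in depletion against control, Kcnd1 -0.0084 to 0.088, Kcnip2 -0.062 to 0.0099, Kcnj12 -0.12 to 0.0080, Kcnk13 -0.24 to 0.0043 and Kcnn4 -0.18 to 0.26; in repopulation against depletion, Kcna2 -0.047 to 0.056, Kcna4 -0.072 to 0.023, Kcnd2 -0.012 to 0.051, Kcne2 -2.10 to 0.22, Kcnj13 -0.82 to 0.48, Kcnj6 -0.032 to 0.075, Kcnk12 -0.085 to 0.079, Kcnk13 -0.14 to 0.035, Kcnn4 -0.071 to 0.30 and Kcnq5 -0.033 to 0.023; in repopulation against control, Kcne2 -0.29 to 1.88, Kcnj13 -0.19 to 1.02, Kcnk2 -0.0021 to 0.061, Kcnn2 -0.050 to 0.0091 and Kcnn4 -0.067 to 0.33. The exact permutation value of Kcnk13 is a difference of mean log2(CPM + 0.1), which for repopulation against depletion ran from -0.13 to 0.032 with 1 library left out. Depth limits the genes with few reads, such as Kcnn4 and Kcne2.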
